A study of Mus musculus with 6 samples.

Results

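Mitochondrial ribosomal protein genes were taken as every gene whose annotated symbol begins with Mrpl or Mrps followed by a number, and 74 of the 12393 genes named on the arrays met this rule. Of these, 47 carry a large subunit symbol (Mrpl) and 27 a small subunit symbol (Mrps). The arrays came from 6 mouse embryonic brains at E11.5, in Swiss Albino mice: 3 controls from normal mothers, and 3 malformed brains from mothers with diabetes induced by streptozotocin (STZ), which destroys the beta cells of the pancreas. Each brain was hybridised to its own array, and the labels state no allele or transgene for any of them. All brains of the diabetic group were malformed, so the effects of a diabetic mother and of malformation cannot be told apart, and the sources used here do not say whether brains shared a litter. The p-values cover only the spread between these brains, each with its own array and scan day, which cannot be told apart. The spread of a gene was estimated partly from all genes tested.

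The mitochondrial ribosome translates the few proteins encoded by mitochondrial DNA, all of them core subunits of the respiratory chain and ATP synthase. Its own proteins are encoded in the nucleus, made in the cytosol and imported, and they assemble on mitochondrial ribosomal RNA into a small subunit, which reads the messenger RNA, and a large subunit, which joins the amino acids. Part of these proteins descend from bacterial ribosomal proteins and the rest are found in mitochondria alone. Inherited loss of single members, such as MRPS34, MRPS22, MRPS16, MRPL3 or MRPL44, causes combined respiratory chain deficiency in humans, with brain and heart among the affected organs.

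The deposited signals lie in 2 value tables from different chip types. The first holds control and diabetic replicates 1 and 2, and the second holds replicate 3 of each group, so every difference was taken within a table. Median signals per array were 210 to 227 for the first table, and the second table had 165 to 173. Across all genes tested, arrays correlated at 0.935 to 0.975 within a table and at 0.877 to 0.930 between tables. Markers of neural progenitors (7 of 7 listed genes) and of neurons (6 of 6) had a mean signal of at least 100. So did 8 of 8 markers of mesenchyme, 6 of 6 of surface epithelium and 5 of the 5 erythroid markers on the arrays. For endothelium, macrophages and muscle the counts were 5 of 6, 3 of 5 and 1 of 4. Of the 12393 genes on the arrays 8632 reached this signal, so these counts are a weak sign of the labelled tissue.

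Promoter letters are shown for 3 members, chosen after their values were seen from those with larger estimates on either side (Mrpl46 and Mrpl34 above 0, Mrpl32 below), and none of these members passed the adjusted threshold in limma. RefSeq promoter windows of build GRCm38.p6, from 250 bases before to 50 after the start of transcription, matched 65 of the 74 members. The 3 runs below end at the base before the start and read 5′ to 3′ on the strand of the gene, and capitals mark matches on either strand to the cores searched for NRF1 (GCATGCG) and for ETS factors such as GABPA (CCGGAAG), both known regulators of nuclear genes for mitochondria. The first is the whole spacer between Mrpl46 and Mrps11, which start 42 bases apart on opposite strands.
Mrpl46, chr7:78783090-78783130, minus strand: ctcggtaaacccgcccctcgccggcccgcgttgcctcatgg
Mrpl34, chr8:71464826-71464925, plus strand: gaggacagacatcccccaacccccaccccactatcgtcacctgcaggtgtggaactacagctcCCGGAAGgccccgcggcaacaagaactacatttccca
Mrpl32, chr13:14613038-14613137, minus strand: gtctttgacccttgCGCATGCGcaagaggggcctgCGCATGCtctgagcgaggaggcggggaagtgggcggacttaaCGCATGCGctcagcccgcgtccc
The spacer of Mrpl46 held no match to these cores, Mrpl34 held 1 ETS core, and Mrpl32 held 3 separate stretches with the NRF1 core.

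Mitochondrial ribosomal protein transcripts had median changes close to 0 in the brains from diabetic mothers. The median log2 change was 0.022 over the 47 large subunit genes and 0.025 over the 27 small subunit genes, on the log2(signal + 32) scale, against 0.012 over all 8632 genes tested. In limma with the value table as a block, 0 of 74 members passed an adjusted p of 0.05, and neither did any other gene (0% of those tested), and the smallest adjusted p of a member was 0.609. At an unadjusted p under 0.05 limma counted 2 members with higher signals and 0 with lower signals in the diabetic group, beside 3.72% and 3.87% of all genes tested (7.59% for both directions). Those 2 counts were 0 and 2 in the first table alone, 2 and 2 with array weights, and 3 and 1 without control replicate 1, so the side on which members fell below that p depended on the arrays used. Changes ran from -0.35 to 0.49 over the members.

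The precision of these values sets what could be seen. Standard errors of the members ran from 0.15 to 0.24, and the 95% interval of the change lay inside a 1.5-fold difference in either direction for 33 of 47 large and 24 of 27 small subunit genes (70.2% and 88.9%), against 57.3% of all genes tested. A change of over 1.2-fold was estimated for 8 members (10.8%), against 24.6% of all genes. The standard deviation of the changes was 0.16 over the members, 0.25 over all genes tested and 0.24 over the 5409 genes with mean signals in the members' range, which ran from 265 to 2271.

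**Figure D1:**
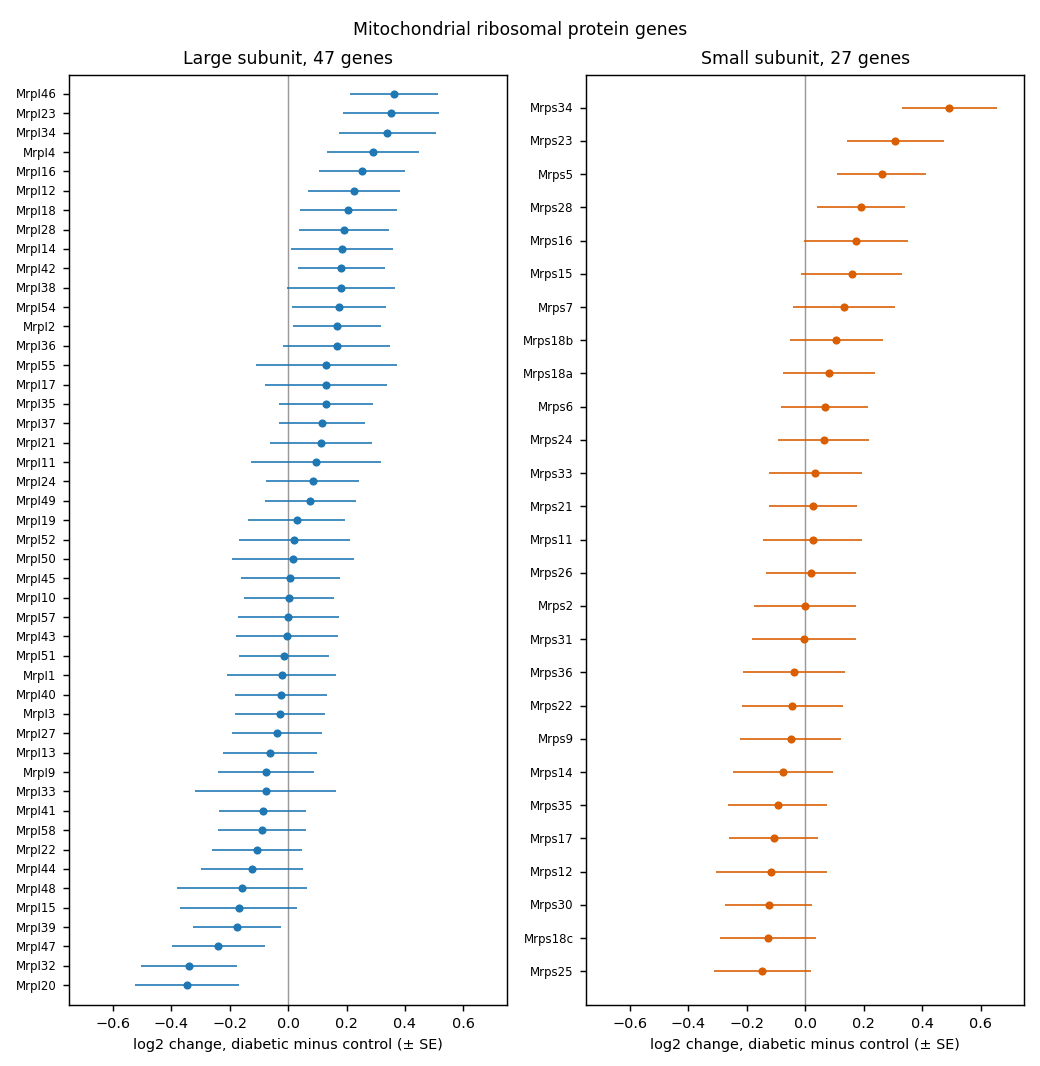
Log2 change between diabetic and control arrays (x axis, on log2(signal + 32), with the value table as a block) for each of the 47 large and 27 small subunit genes; points are limma estimates and bars are their standard errors (3 arrays per group). Values run from -0.35 for Mrpl20 to 0.49 for Mrps34, and 28 large and 15 small subunit genes lie above 0.

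Large and small subunit genes were then set against each other. Of the large subunit genes 28 of 47 lay above 0 (59.6%), and of the small subunit genes 15 of 27 (55.6%), against 52.2% of all genes tested. The large subunit median minus the small subunit median was -0.0027. On diabetic replicates 1, 2 and 3 that difference was -0.030, 0.060 and -0.012, so it changed sign between brains of the same group. The difference between the subunits was therefore smaller than its spread over the diabetic arrays (SD 0.048, n = 3). Mrps18a and Mrps30 carry small subunit symbols although their proteins sit in the large subunit, and counting them there gave medians of 0.022 and 0.025 over 49 and 25 genes.

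The median over the members was above 0 on the array of each diabetic brain. Relative to the controls of its table, the median over all 74 members was 0.081 on diabetic replicate 1, 0.045 on diabetic replicate 2 and 0.040 on diabetic replicate 3, with 45, 44 and 43 members above 0. Over all genes tested the medians were 0.014, -0.018 and 0.028, and the shares above 0 were 52.1%, 47.8% and 53.6%. In the same order the large subunit medians were 0.071, 0.060 and 0.034. Those of the small subunit were 0.10, 0.00025 and 0.046. Control replicate 2 minus control replicate 1 had a median of 0.023 over the members. The 2 control arrays of the first table lay further apart than the group means of that table for 41 of 74 members, as they did for 51.7% of all genes.

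In 15 members the diabetic arrays lay above the control arrays within both tables, against 11.3% of all genes tested, and in 5 members they lay below, against 10.7%. As shares of the 74 these counts are 20.3% and 6.76%, and over all genes both sides together made up 22.0%. Against the mean of their table's controls, 17 members were higher on all 3 diabetic arrays (18.9% of all genes were) and 8 were higher on none (16.7% of all genes). The large subunit held 11 of the higher and 4 of the lower members, and the small subunit held 4 and 1.

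Mrps34, a small subunit protein of mitochondria alone, had the highest estimate. Listed here and below in the order of replicates 1, 2 and 3, its control signals were 866, 1009 and 765 and its diabetic signals 1188, 1225 and 1324. Every diabetic array was above every control array. The log2 change, with its standard error from 3 arrays per group here and below, was 0.49 ± 0.16, about 1.41-fold, with a 95% interval of 0.12 to 0.86, an unadjusted p of 0.0141 and an adjusted p of 0.609 in limma. The tables taken singly gave 0.36 and 0.77.

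Mrpl46, a large subunit protein without a bacterial counterpart, followed with 776, 721 and 592 on the controls and 985, 898 and 823 on the diabetic arrays. Here too no diabetic array reached down to a control array. Its log2 change was 0.36 ± 0.15, with an adjusted p of 0.648 in limma. Mrps11, the small subunit gene that shares the short spacer printed above, had 748, 950 and 567 on the controls and 906, 977 and 478 on the diabetic arrays, which overlap, and a change of 0.025 ± 0.17; it was named for its neighbour, outside the naming rule.

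Of the other 10 large subunit members with diabetic arrays above the controls of their table, Mrpl23, Mrpl34, Mrpl4 and Mrpl16 had the smallest p. The remaining 6 were Mrpl2, Mrpl12, Mrpl37 and, outside the naming rule, Mrpl28, Mrpl42 and Mrpl54, with log2 changes from 0.12 to 0.23. Mrpl23, a protein near the exit of the peptide tunnel, had 1471, 1586 and 1342 on the controls and 1807, 2326 and 1569 on the diabetic arrays. The diabetic array of the second table overlapped the controls of the first, but not the control of its own table. Its log2 change was 0.35 ± 0.16.

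Mrpl34 had 1345, 1284 and 1339 on the controls and 1452, 1517 and 2159 on the diabetic arrays. The diabetic array of the second table stood highest, and the change was 0.34 ± 0.17, made of 0.17 and 0.68 in the tables taken singly. For Mrpl4, whose bacterial counterpart lines the peptide tunnel, the signals were 933, 1081 and 921 against 1237, 1364 and 1025, with a change of 0.29 ± 0.16. Mrpl16, whose bacterial counterpart lies near the tRNA in the A site, had 1066, 1091 and 1174 against 1303, 1282 and 1402. Its change of 0.25 ± 0.15 was the most even of the named members, at 0.25 in each table and 0.24 to 0.26 as single arrays were left out.

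On the small subunit side Mrps23 and Mrps5 came next to Mrps34. Mrps23, found in mitochondria alone, had 912, 783 and 450 on the controls and 965, 935 and 699 on the diabetic arrays, with a change of 0.31 ± 0.17. A second probe set of Mrps23, with a lower mean signal of 547, had -0.049. Mrps5, the counterpart of a bacterial protein at the messenger RNA entry site, had 456, 541 and 394 against 572, 622 and 486, with a change of 0.26 ± 0.15, and its second probe set had -0.057. The probe sets of both genes thus differed in sign.

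**Figure D2:**
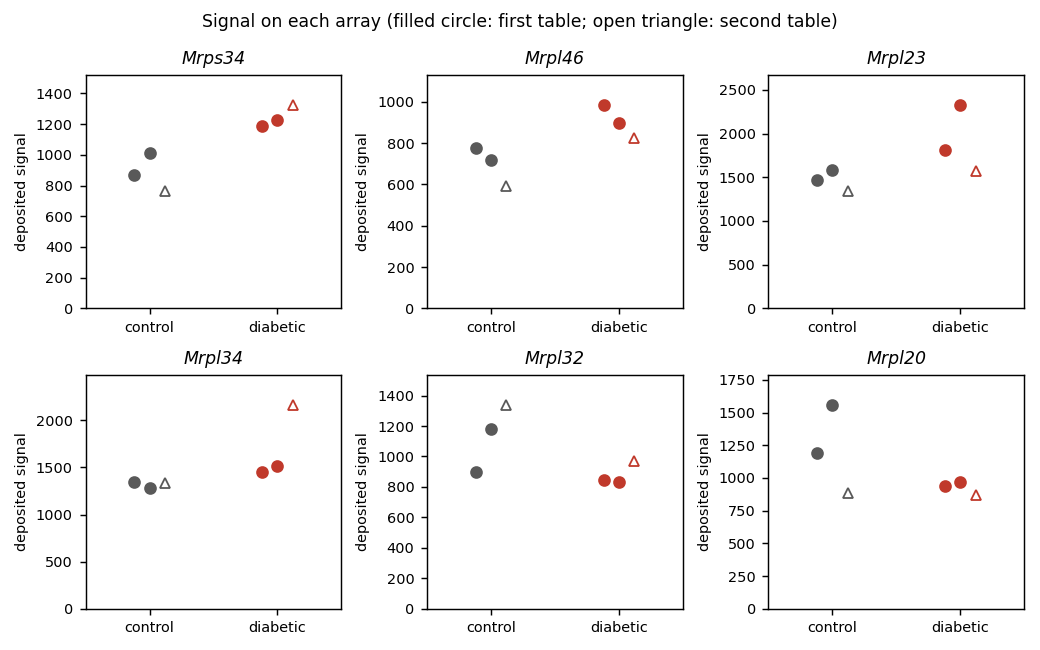
Deposited signal (y axis, linear, from 0) on each of the 6 arrays for 6 members, by group (x axis); filled circles are arrays of the first value table and open triangles those of the second. Diabetic arrays lie above the controls of their own table for Mrps34, Mrpl46, Mrpl23 and Mrpl34 and below them for Mrpl32 and Mrpl20.

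The lowest estimates belonged to large subunit members. Mrpl20, whose bacterial counterpart is needed early in large subunit assembly, had 1195, 1555 and 887 on the controls and 935, 966 and 871 on the diabetic arrays. The diabetic arrays lay below the controls of their table, by -0.51 and -0.025 in the tables taken singly. The log2 change was -0.35 ± 0.18, and without control replicate 2 it was -0.19.

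Mrpl32, whose protein is cut to its mature form by the m-AAA protease of the inner membrane, had 898, 1180 and 1336 on the controls and 844, 835 and 971 on the diabetic arrays. Its change was -0.34 ± 0.16, with an adjusted p of 0.662 in limma, and both tables lay below 0. Its divergent neighbour Psma2, a proteasome subunit starting 205 bases away, had 0.13 ± 0.15. Mrpl47, counterpart of a bacterial protein at the tunnel exit, had 577, 670 and 970 against 575, 552 and 704, with a change of -0.24 ± 0.16, and diabetic replicate 1 differed little from control replicate 1.

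Mrpl39, a member related in sequence to tRNA synthetases, had 1353, 1352 and 2431 on the controls and 1082, 1184 and 2389 on the diabetic arrays, with a change of -0.18 ± 0.15. Mrps30 had 670, 717 and 759 against 606, 640 and 715, with -0.13 ± 0.15. On the probe sets used, these 2 members and Mrpl20, Mrpl32 and Mrpl47 were the 5 whose diabetic arrays lay below the controls within both tables. A second probe set of Mrpl39, with a mean signal of 1001, had -0.051. It went the other way in the second table, with 1021 on the control and 1162 on the diabetic array. Mrpl15, Mrps25 and Mrps18c had estimates of -0.17, -0.15 and -0.13, and their groups overlapped, with the second table above 0 for each. For Mrpl15 the mean over its probe sets turned the sign, to 0.091.

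The other 12 members named for a known role had log2 changes from -0.12 to 0.23. Mrpl12, the stalk protein that recruits translation factors and also binds the mitochondrial RNA polymerase, had 1267, 1139 and 1178 on the controls and 1322, 1269 and 1639 on the diabetic arrays, with a log2 change of 0.23 ± 0.16. Mrpl10, which anchors that stalk, had 850, 927 and 708 against 800, 936 and 750 and a change of 0.0035 ± 0.15, so the stalk and its anchor differed in estimate with overlapping intervals of -0.13 to 0.58 and -0.34 to 0.35. Mrpl2 and Mrpl3, counterparts of proteins close to the peptidyl transferase centre, had 0.17 ± 0.15 and -0.028 ± 0.16.

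Mrpl44, a protein with a ribonuclease III fold, had 0.023 and -0.42 in the tables taken singly, and -0.12 ± 0.18 over both. Mrpl41, linked to cell death, had -0.087 ± 0.15, and Mrpl37 had 0.12 ± 0.15. Of these 3, only Mrpl37 had diabetic arrays beyond the controls within both tables on the probe set used. Other probe sets of Mrpl44, with mean signals of 268 and 626, had -0.40 and -0.21. On each of them the diabetic arrays lay below the controls within both tables.

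Among small subunit members, Mrps12, the counterpart of the decoding centre protein of bacteria, had 1431, 1070 and 995 on the controls and 1229, 904 and 1068 on the diabetic arrays. The groups overlapped, and the log2 change was -0.12 ± 0.19. Mrps7 and Mrps16, both with bacterial counterparts, had 0.13 ± 0.17 and 0.17 ± 0.18, carried by the second table with 0.41 and 0.59 against -0.0089 and -0.036 in the first. Mrps22 had -0.044 ± 0.17, with 889 on diabetic replicate 2 and 1144 to 1421 on the other 5 arrays. Mrps18b, a paralogue of Mrps18c, had 0.11 ± 0.16.

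The other 46 members had estimates between -0.16 and 0.21. Among them, Mrpl33 was chosen after its values were seen, for the widest gap between tables: its signals were 160, 198 and 712 on the controls and 224, 240 and 371 on the diabetic arrays, giving differences of 0.33 (first table) and -0.88 (second table). Mrps36 is listed with the small subunit by its symbol, although its protein is now regarded as a component of the 2-oxoglutarate dehydrogenase complex, and it had -0.039.

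The 2 value tables did not rank the members alike. A member had the same sign in both tables in 32 of 74 cases (43.2%), against 51.5% of all genes tested, with 22 members above 0 in both and 10 below 0 in both. Across the 74 members the differences of the tables correlated at -0.13, a description over genes that share the same 6 arrays. The second table rests on 1 array per group and has no replicate check of its own.

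**Figure D3:**
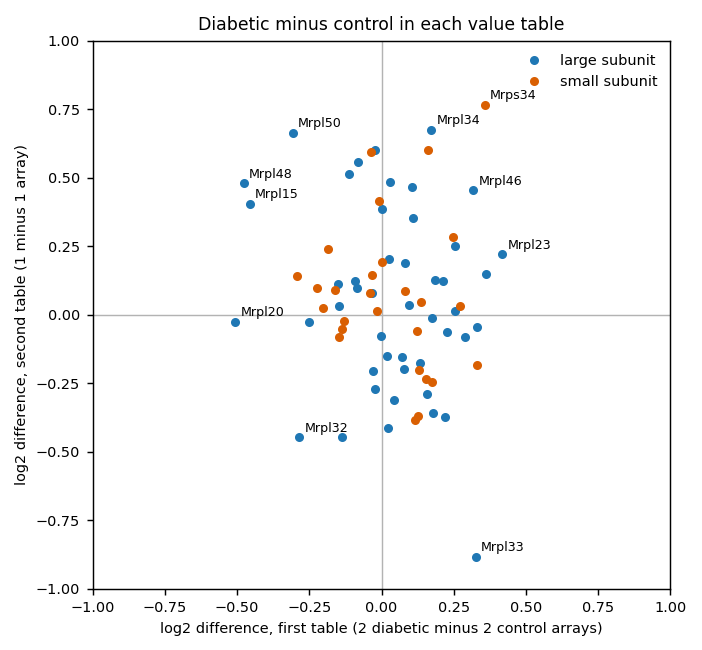
Log2 difference between diabetic and control arrays in the first table (x axis, 2 against 2 arrays) and in the second table (y axis, 1 against 1 array) for the 74 members, coloured by subunit. Points fill all 4 quadrants, with 22 members above 0 in both tables and 10 below 0 in both, and Mrpl33 lies at 0.33 and -0.88.

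By descent, the 44 members with a bacterial counterpart had a median log2 change of 0.064, with 27 above 0, and the 30 members of mitochondria alone had 0.0042, with 16 above 0. Mrps18a and Mrps18b, paralogues of the bacterial-type Mrps18c, were counted with the second class. Both members at an unadjusted p under 0.05, Mrps34 and Mrpl46, belonged to that class. In the first table the order of the medians was the other way, with 0.011 for the first class and 0.078 for the second.

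Other parts of the mitochondrial translation system were read from fixed lists, and 0 of their genes passed the adjusted threshold in limma. The 4 tested proteins of the mitochondrial ribosome under other symbols had log2 changes of 0.19 for Gadd45gip1, 0.15 for Chchd1, 0.095 for Ptcd3 and 0.038 for Dap3. Translation factors had a median of -0.11 over 6 genes, with Gfm2, which takes part in ribosome recycling, at -0.38 ± 0.18, Gfm1, the elongation factor of translocation, at -0.24, and Mrrf, the recycling factor, at 0.21. At an unadjusted p under 0.05 none of these 6 was counted. Control replicate 2 minus control replicate 1 had a median of -0.22 over them, further from 0 than the median between the groups.

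Factors of ribosome assembly and ribosomal RNA modification had a median of 0.060 over 17 genes, 9 of them above 0. Mterf3, a regulator of mitochondrial transcription and ribosome assembly, had signals of 623, 625 and 1504 on the controls and 440, 349 and 1187 on the diabetic arrays. The diabetic arrays lay below the controls of their table, and the change was -0.53 ± 0.16, with an unadjusted p of 0.00946 and an adjusted p of 0.575 in limma. Nsun4, an RNA methyltransferase of the mitochondrial ribosome, had 0.34 ± 0.17, and Noa1, a GTPase needed for small subunit assembly, had -0.22 ± 0.16.

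Mitochondrial transcription and RNA genes had a median of 0.018 over 8 genes, 4 above 0, but in the second table the median was -0.25 with 1 of 8 above 0. Polrmt, the mitochondrial RNA polymerase, had 0.25 ± 0.15, and Tfb2m, a factor that works with it at mitochondrial promoters, had -0.35 ± 0.29. Lrpprc, which stabilises mitochondrial messenger RNA, had 0.37 ± 0.25, made of 0.69 and -0.26 in the tables taken singly, and 0.094 without control replicate 1. Regulators of mitochondrial biogenesis had a median of 0.040 over 8 genes, with changes from -0.54 to 0.35. In the second table their median was -0.071, with 1 of 8 above 0. Within both tables the diabetic arrays lay above the controls for 1 of these regulators (12.5%) and below them for 2 (25%). Over all genes tested those shares were 11.3% and 10.7%. Nrf1, which encodes the NRF1 factor, had 0.35 ± 0.15, with signals of 361, 425 and 247 on the controls and 480, 484 and 361 on the diabetic arrays, each above the controls of its table. Its unadjusted p was 0.0491 and its adjusted p 0.656 in limma. Gabpa, the ETS factor, had -0.24 ± 0.15.

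The members were set beside the groups most like them. Their median log2 change over both tables was 0.023. Cytosolic ribosomal protein genes had a median log2 change of 0.18, with 41 of 46 above 0, and nuclear genes of respiratory chain and ATP synthase subunits had 0.076, with 50 of 76 above 0. Medians of the cytosolic group were 0.25 and 0.027 in the tables taken singly, those of the respiratory chain group 0.082 and 0.021, and those of the mitochondrial ribosomal proteins 0.037 and 0.040, which was the highest of the 3 in the second table. As single arrays were left out, the members' median ran from 0.016 to 0.047. The respiratory chain median ran from 0.0095 to 0.11, which overlapped the members' range. The cytosolic median ran from 0.068 to 0.25, which lay above the members' range. Leaving out either array of replicate 3 left only the first table to set the difference. In the cytosolic group control replicate 2 minus control replicate 1 had a median of 0.25, beside 0.25 between the groups in that table. These 2 values were 0.12 and 0.082 for the respiratory chain group, and 0.023 and 0.037 for the members. In limma 0 genes of either comparison group passed an adjusted p of 0.05, and the differences between these gene groups were not tested.

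**Figure D4:**
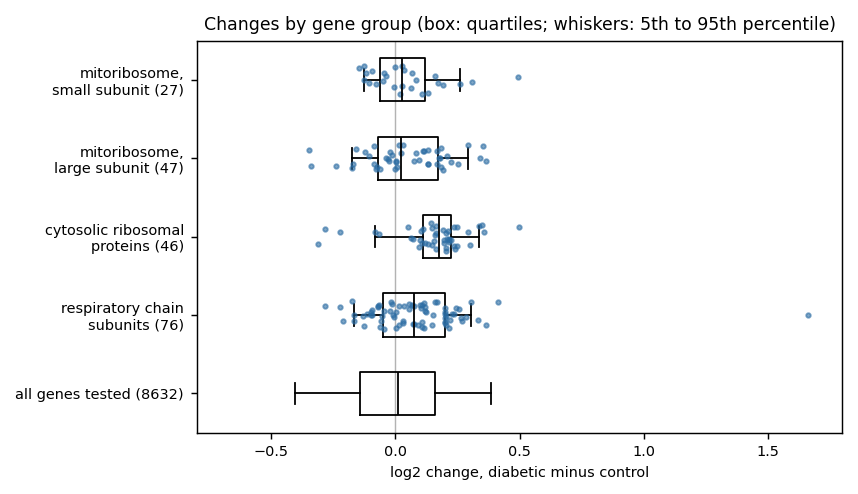
Log2 change between diabetic and control arrays (x axis) for all 8632 genes tested, 76 respiratory chain subunits, 46 cytosolic ribosomal proteins and the 47 large and 27 small subunit genes of the mitochondrial ribosome; boxes are quartiles with the median, whiskers the 5th to 95th percentile, and points single genes (not drawn for all genes). The medians are 0.012, 0.076, 0.18, 0.022 and 0.025 in that order, and Ndufs5 lies apart at 1.66, with 2.61 and -0.24 in the tables taken singly and its lowest signals, 250 and 155, on control replicates 1 and 2.

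The members' promoters were then searched for the cores of 3 factors known to act on nuclear genes for mitochondria. Of the 65 with a RefSeq window, 24 (36.9%) held the ETS core CCGGAAG, 12 (18.5%) the YY1 core AAGATGG and 8 (12.3%) the NRF1 core GCATGCG, searched on both strands. Over the 7006 tested genes with a window the shares were 20.7%, 8.68% and 7.66%, and over all 27025 genes with one they were 9.93%, 7.28% and 4.01%. The NRF1 core stood in 7 of 41 large and 1 of 24 small subunit promoters. These matches are a description of the letters, and they do not show that a factor binds there.

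Sorted by these cores, the members' changes gave medians of -0.076 for the 8 with the NRF1 core and 0.025 for the 57 without it, 0.010 for the 24 with the ETS core and 0.025 for the 41 without, and 0.079 for the 12 with the YY1 core and 0.00055 for the 53 without. Changes above 0 were found in 3 of 8 members with the NRF1 core and 34 of 57 without, in 13 of 24 and 24 of 41 for the ETS core, and in 10 of 12 and 27 of 53 for the YY1 core. The differences between these sets were not tested. A second gene started on the other strand within 1000 bases for 25 of the 65 members, in 24 pairs, and both genes were tested in 13 of them. In 8 of the 13 pairs both changes had the same sign, and that share was not computed over pairs of other genes. Fau, which encodes a cytosolic ribosomal protein and starts 192 bases from Mrpl49, had 0.45 ± 0.18, against 0.076 for Mrpl49. It stood outside the naming rule and had the largest change among the tested neighbours.

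Levels of other cell types moved with the groups in part, and their role in the members' values was not tested. Summed signals of the 6 neuronal markers were 7669 to 8873 on control and 3697 to 10431 on diabetic arrays, with the lowest sum on diabetic replicate 2, and their median changes on diabetic replicates 1 to 3 were -0.47, -1.11 and 0.35. The members' medians on those arrays lay between 0.040 and 0.081. All 8 mesenchyme and meninges markers had changes below 0, with a median of -0.35. Their summed signals within the first table were 13000 and 13565 on the controls against 11722 and 11012 on the diabetic arrays, and within the second 16641 against 13559. All 3 tested macrophage markers also lay below 0 (median -0.28). Over the 5 macrophage markers on the arrays, tested or not, the sums were 1199 and 1163 on the controls against 877 and 661. Within the second table they were 776 against 788. The 7 progenitor markers summed to 10067 and 10853 on the controls against 9094 and 8856, and in the second table to 12335 against 13425, with 4 of 7 above 0. The 5 erythroid markers summed to 40985 and 50287 on the controls against 47872 and 55882, and in the second table to 48870 against 50896, with 4 of 5 above 0. The 6 surface epithelium markers summed to 2581 and 2278 on controls against 2721 and 2951, and in the second table to 1692 against 1514. The 6 endothelium markers on the arrays summed to 2131 and 1530 against 1510 and 1505, and in the second table to 998 against 1223. Of these lists, 4 of 6 and 2 of 5 tested markers lay above 0. The only tested muscle marker had -0.50. In bulk tissue, fewer cells of a type and less RNA per cell cannot be told apart.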

How the data were processed

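The authors deposited linear intensity values of 22690 probe sets per array, split over 2 value tables, and GCOS, an Affymetrix program, is named in the submitters' processing notes. Which version and settings were used is not stated in the labels. Every array had a trimmed mean near 500.1 to 500.2 after 2% of values were removed at each end. Other deposited fields are run settings as text, and per the file headers they give the chips MOE430A and Mouse430A_2, a scanner type that differed between tables and 6 distinct scan days for 6 arrays.

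Genes were named from the 20380 probe sets that list 1 gene. Each gene was represented by the probe set of highest mean signal, 127 probe sets named members, and 2 members named only on probe sets with a second gene were left out. All 74 members were among the 8632 genes whose signal averaged 100 or more, which were tested with limma 3.58.1 in R 4.3.3 on log2(signal + 32), two-sided, with Benjamini-Hochberg adjustment over all genes and the value table as a block (3 residual degrees of freedom). The fit was also run on simulated data with planted changes larger than any estimated for a member. That run does not show what could be detected at the sizes reported here. This log scale understates changes of low signals, and precision is limited by the number of arrays. Members named by rule were the 8 of smallest p on each side and 14 of known role; array signals are given for most of them and for Mrps11 and Mrpl33, chosen outside the rule. Of 26 members with several probe sets past the signal minimum, 14 had probe sets of opposite sign, and 7 members used a probe set that may bind related transcripts. The members and lists were chosen with earlier results of these data known.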

Additional observations from a re-analysis of the deposited data

How the results depend on the processing

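Under the alternatives (pseudocounts of 16 and 64, other signal minimums, quantile or median scaling, other probe set rules, no block, a replicate block, array weights, the first table alone and each array left out), limma called 0 genes and 0 members at an adjusted p of 0.05 throughout. Leaving out either array of replicate 3 gave the same values as the first table alone, so these are not separate checks. At an unadjusted p under 0.05 the counts over all genes ran from 97 without a block to 879 with array weights, and members above 0 from 40 to 46 of 74. Members at that p were 2 on the higher side and 0 on the lower in the reported fit, 1 and 0 without a block and with the replicate block, 2 and 2 with array weights, 0 and 2 in the first table alone, and 3 and 1 without control replicate 1. With array weights the large subunit median was 0.041, and in the first table alone 0.043; as single arrays were left out it ran from -0.0040 to 0.049, that of the small subunit from -0.0058 to 0.037, and their difference from -0.035 to 0.049. Some signs of named members turned: with array weights Mrpl10 had -0.077, Mrpl3 0.012 and Mrps12 0.0064, in the first table alone Mrpl10 had -0.034, Mrpl44 0.023, Mrps16 -0.036 and Mrps7 -0.0089, with median centring Mrpl10 had -0.0042, and with the mean over probe sets Mrpl15 had 0.091. The cause was not tested. As single arrays were left out, changes ran from -0.048 to 0.077 for Mrpl10, -0.11 to 0.040 for Mrpl3, -0.26 to 0.023 for Mrpl44, -0.22 to 0.037 for Mrps12, -0.036 to 0.28 for Mrps16, -0.19 to 0.097 for Mrps22 and -0.0089 to 0.27 for Mrps7. Replicate numbers 1 and 2 were not treated as pairs in the first table, and replicate 3 is the second table. The difference of replicate 1 and 2 in controls correlated with that in the diabetic group at -0.013 across genes. That value cannot settle whether the arrays were paired by design. With the replicate block the large subunit median stayed 0.022, 633 genes had an unadjusted p under 0.05 and the smallest adjusted p of a member was 0.625.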
